A study of Mus musculus with 14 samples.

Results

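The collagen genes of the mouse were followed in RNA-seq libraries of the hippocampus. They were taken as every gene whose symbol has the form Col, a number, a and a number, which gave 44 genes of 55450 in the GENCODE M21 annotation. Of these, 43 had a value in at least 1 of the 14 libraries, 36 had one in all 14, and Col10a1, the collagen of hypertrophic cartilage, had none. In all, 18722 genes had a value in any library, and 16568 of them, those present in 3 libraries or more, entered the tests. All 43 collagen genes with a value were among them.

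Collagens are extracellular matrix proteins built from chains that wind into a triple helix, and most of their genes encode a single chain that must find the right partners. Fibrillar collagens make the tough fibrils of connective tissue, type IV collagens make the sheet of every basement membrane, and type VI collagens form beaded filaments next to it. In the brain, collagen is sparse between neurons and is made mainly around vessels, in the meninges and in the choroid plexus, while a few transmembrane collagens are made by neurons.

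The mice were C57BL6 and, by their labels, either wild type (KMT2D+/+) or KMT2D+/bGeo, which carries 1 gene trap allele of the histone methyltransferase gene Kmt2d. They were dosed by gavage with methylcellulose vehicle or with TAK-418, which inhibits LSD1, a demethylase of histones. The dose was 1 mg/kg per day for 2 weeks, begun at 2 weeks of age, and the age is labelled as 30 days. There were 3 libraries of vehicle wild types, 3 of vehicle mutants, 5 of treated wild types and 3 of treated mutants. The series text puts 3-4 mice in a group, which conflicts with the 5 libraries labelled as treated wild types. The labels were followed, so the n of 5 rests on them. The vehicle groups were thus gavaged too. The labels give no sex, cage or replicate number. Numbers used here only name libraries, and because the labels do not say outright that each library is a separate mouse, p-values measure the spread between these libraries.

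Relative depth was 168 M in treated wild type 1 and between 35.1 and 60.0 M in the other 13, and 33819 to 48428 transcripts were assembled per library. Kmt2d itself was at 13.8 to 14.2 in vehicle wild types, 10.6 to 14.4 in vehicle mutants, 12.5 to 18.0 in treated wild types and 9.34 to 14.6 in treated mutants, so its level did not separate the genotypes. The drug's target, Kdm1a, was at 29.9 to 35.8 in all 14. The summed level of 8 hippocampal neuron markers was 2770 to 3980. Single genes lowered some of these sums. Nrgn was at 227 in treated wild type 2 against a median of 1200. Snap25 was at 257 in treated wild type 1 and 415 in vehicle mutant 3 against a median of 1020. In the libraries named vehicle mutant 1 and vehicle wild type 3, all 16 choroid plexus epithelium markers lay above the other 12 libraries. Ttr, the main secreted product of that epithelium, was at 4910 and 6370 there, at 884 in vehicle mutant 3, at 590 in treated mutant 1 and at 6.48 to 36.2 in the rest. Counts, medians and many of the single-gene differences that involve them are given below with and without these 2 libraries. RNA was measured in bulk tissue, so more cells of a type and more RNA per cell cannot be told apart.

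The sequences upstream of 3 genes are shown because the genes that stood apart in those 2 libraries, described below, include both chains of type VIII collagen and a pair of type IV genes that start back to back. RefSeq promoter windows on GRCm38.p6, running from 250 bases before to 50 bases after a start, were found for 35 of the 44 genes. Only bases outside annotated exons are printed. Capitals mark the GC box GGGCGG on either strand.

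Col8a1: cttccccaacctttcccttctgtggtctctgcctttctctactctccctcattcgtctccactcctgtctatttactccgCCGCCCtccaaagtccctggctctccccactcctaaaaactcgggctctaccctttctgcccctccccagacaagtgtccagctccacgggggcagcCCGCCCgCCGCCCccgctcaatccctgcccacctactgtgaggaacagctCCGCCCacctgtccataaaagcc

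Col8a2: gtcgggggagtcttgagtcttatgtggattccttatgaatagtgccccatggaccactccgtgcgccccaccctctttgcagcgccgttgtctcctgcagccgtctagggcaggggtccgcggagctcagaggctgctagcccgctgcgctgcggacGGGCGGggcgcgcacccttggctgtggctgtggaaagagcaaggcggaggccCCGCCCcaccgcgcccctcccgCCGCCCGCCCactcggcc

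Col4a4: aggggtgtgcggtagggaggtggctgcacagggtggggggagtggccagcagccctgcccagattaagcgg

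The Col8a1 stretch is chr16:57754738-57754987 on the minus strand and the Col8a2 stretch is chr4:126286544-126286792 on the plus strand. Each holds 4 GC boxes, and the last 2 of Col8a2 overlap. Their GC contents were 60.8% and 69.9%, against a median of 52.7% over all 32851 windows. The Col4a4 stretch, chr1:82586850-82586920 on the minus strand, is the whole gap of 71 bases between the annotated starts of Col4a4 and Col4a3, which point away from each other, and it holds no GC box. A GC box is present in 35.7% of all windows and in 23 of the 38 collagen windows. The CCAAT box, spelled CCAAT, is in 37.4% of all windows and in 13 collagen windows, and the TATA box, spelled TATAAA, is in 13.6% and in 5. The letters TAATCC, bound by OTX factors, are in 7.06% of all windows and in 0 of the 38, which says only that these letters are absent from these windows.

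Levels are given as scaled abundance, the authors' assembled transcript abundance summed per gene and scaled between libraries. The scale is per kilobase, but the abundances of all assembled pieces of a gene were added. A gene assembled in several pieces can thus be listed too high beside a gene assembled whole. In vehicle wild types Col6a4, with 7 transcripts in replicate 3, averaged 4.12, against 1.04 in the authors' deposited table. Col6a1, with 1 transcript in that library, averaged 17.5 against 11.9. Levels of different genes are therefore only roughly comparable. A library without any assembled transcript for a gene is listed at 0, which does not show that the gene was silent. Most collagen genes were low in this tissue. A mean of 10 or more was reached by 5 genes, 32 lay between 1 and 10, and 6 lay below 1. The 4 highest genes held 39.5% and the 10 highest held 61.1% of the summed collagen abundance, which was 167 to 250 per library. Vehicle mutant 1, at 250, and vehicle wild type 3, at 233, were the highest, and vehicle mutant 3 was next at 199. Some means were raised by those first libraries. The median of Col9a3 was 9.12, and those of Col8a2, Col8a1 and Col4a4, with means above 1, were 0.59, 0.105 and 0.38.

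**Figure D1:**
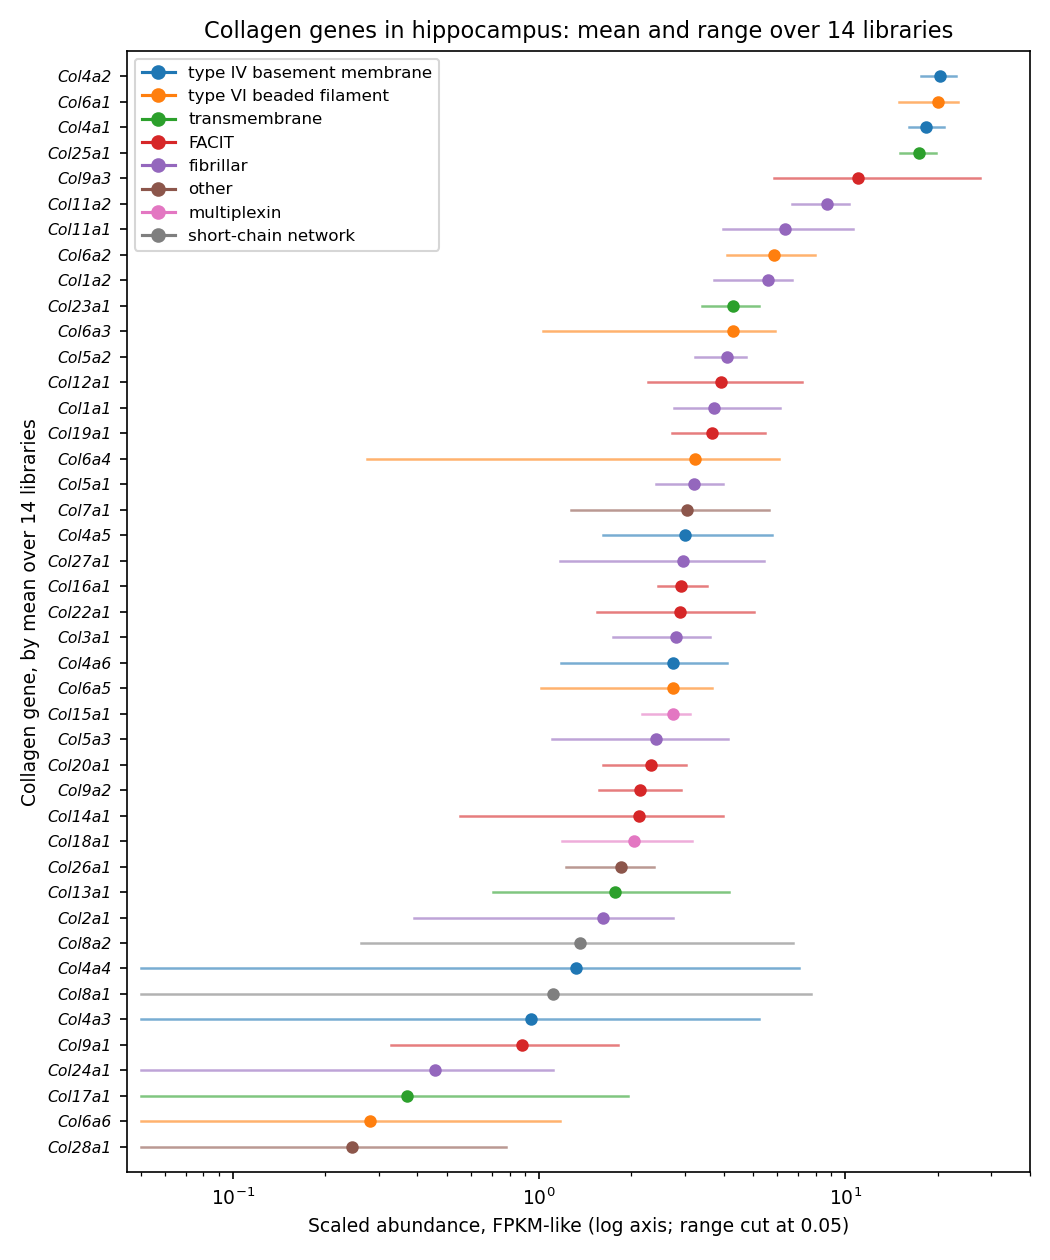
Scaled abundance (FPKM-like, log axis) of the 43 collagen genes with a value, as the mean (point) and range (line) over 14 libraries, coloured by structural class. Lines that reach the left edge, cut at 0.05, belong to genes listed at 0 in some library. Col4a2, Col6a1, Col4a1 and Col25a1 lead, with ranges that overlap, and Col8a1, Col4a3 and Col4a4 run from the left edge to above 5.

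Basement membrane chains led the list. Col4a2 averaged 20.4 ± 1.58 and Col4a1 18.4 ± 1.64 (SD, n = 14). These 2 chains join as the standard type IV network of vessels. Their genes lie head to head on chromosome 8, with starts at 11312826 (Col4a1, minus strand) and 11312805 (Col4a2, plus strand), so that their first exons overlap. Both varied little, with a highest to lowest ratio of 1.31. The other 4 type IV genes were lower. Col4a5, an X-linked chain of specialised membranes, ran from 1.61 in treated mutant 1 to 5.77 in vehicle mutant 2, with a mean of 3.0. Col4a6, its neighbour, had a mean of 2.74, and Col4a3 and Col4a4 are taken up below.

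Type VI collagen, made in the brain chiefly by cells around vessels and in the meninges, was represented most by Col6a1, at 20.1 ± 2.01 (SD, n = 14). Col6a2 was at 5.83 and Col6a3 at 4.3, although the 3 chains assemble together. The newer chains Col6a4 and Col6a5 had means of 3.23 and 2.74, and Col6a6 was listed at 0 in 7 libraries and reached 1.17. Col6a4 ranged from 0.274 in vehicle mutant 3, with 2 assembled transcripts, to 6.05 in treated wild type 3, with 8. Col6a3 was also assembled in pieces, with 7 transcripts in vehicle wild type 3.

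Among transmembrane collagens, Col25a1, a neuronal collagen whose ectodomain binds amyloid, was at 17.4 ± 1.23 (SD, n = 14). It was the steadiest of all 43 genes, with a coefficient of variation of 7.05%. Col25a1 was at 16.4, 15.1 and 17.6 among vehicle wild types, 17.9, 17.4 and 19.1 among mutants on vehicle, 18.2, 17.6, 15.7, 19.7 and 17.1 in treated wild types and 17.8, 17.9 and 16.7 in treated mutants, so all 4 groups overlapped. Col23a1, another transmembrane chain, was at 4.42, 4.02 and 3.60 among vehicle wild types, 4.37, 3.39 and 4.61 among mutants on vehicle, 3.76, 4.40, 4.21, 4.11 and 5.24 in treated wild types and 4.83, 5.21 and 3.99 in treated mutants, again overlapping. Over all libraries Col23a1 averaged 4.3, Col13a1, known from neuromuscular junctions, at 1.77, and Col17a1, the hemidesmosome collagen, was listed at 0 in 7 libraries.

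Fibrillar collagens had lower levels. Col11a2 was at 8.71, Col11a1 at 6.34, Col1a2 at 5.6 and Col1a1 at 3.73, followed by Col5a2 at 4.1, Col5a1 at 3.2, Col27a1 at 2.94, Col3a1 at 2.8, Col5a3 at 2.4, Col2a1 at 1.61 and Col24a1 at 0.456. Type I collagen takes more chains from Col1a1 than from Col1a2, while the mean RNA level of Col1a2 was above that of Col1a1 here. The FACIT collagens, which sit on fibril surfaces, were led by Col9a3 at 11.0, and the other 8 had means of 0.88 (Col9a1) to 3.91 (Col12a1). Col12a1 was at 3.20, 4.94 and 3.50 among vehicle wild types, 7.20, 2.59 and 4.89 among mutants on vehicle, 2.98, 3.39, 3.04, 2.26 and 4.00 in treated wild types and 4.00, 4.84 and 3.98 in treated mutants, with vehicle mutant 1 the highest. The multiplexins Col15a1 and Col18a1, basement membrane collagens with antiangiogenic fragments, were at 2.74 and 2.04. Col7a1, the anchoring fibril collagen, averaged 3.05, Col26a1 1.85 and Col28a1 0.245. Col7a1 was at 2.34, 3.50 and 2.53 among vehicle wild types, 5.61, 2.20 and 4.64 among mutants on vehicle, 1.27, 3.13, 4.49, 1.85 and 3.05 in treated wild types and 2.47, 3.78 and 1.78 in treated mutants, with vehicle mutant 1 the highest.

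The clearest pattern among the collagen genes followed individual libraries rather than groups. In both vehicle mutant 1 and vehicle wild type 3, 7 of the 43 genes were above all of the other 12 libraries, against 4.33% of all 16568 genes. All but Col4a6, that is 6 of the 7, were there more than 2-fold above the highest of the others. The 2 libraries belong to different genotypes and were picked out by choroid plexus genes, so these values are a description with no test. Col4a3, Col4a6 and Col17a1 are named here after their values were seen.

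Col8a1 and Col8a2 encode the 2 chains of type VIII collagen, a short-chain network collagen of vessel walls and corneal basement membrane. Col8a1 was at 7.73 in vehicle mutant 1 and 5.89 in vehicle wild type 3. The next library was vehicle mutant 3 at 0.675, and 7 of the other 12 were listed at 0. Both Col8a1 and Ttr thus had the same 2 libraries on top with vehicle mutant 3 next. Col8a2 was at 6.73 and 5.23 in the same 2 libraries and at 0.261 to 0.975 in the rest. The lower of the 2 was 8.73 times the highest other value for Col8a1 and 5.37 times for Col8a2.

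Col4a3 and Col4a4 encode chains of the specialised type IV network best known from the kidney glomerulus, and they share the short gap printed above. Col4a4 was at 7.06 in vehicle mutant 1 and 6.07 in vehicle wild type 3, and at 1.49 or less elsewhere. Its next highest library was treated mutant 1, followed by vehicle mutant 3 at 1.07. Col4a3 was at 5.22 and 3.81 in the first 2 libraries, with vehicle mutant 3 at 1.09 and treated mutant 1 at 1.08. The back-to-back genes therefore had the same 4 libraries at the top, which were also the 4 highest in Ttr. Their partner chain Col4a5 was not raised with them, at 2.85 and 2.51 against 1.61 to 5.77 elsewhere. Col4a3 and Col4a4 were assembled as several pieces, 7 and 9 transcripts in vehicle mutant 1, so their levels here are sums over pieces. For vehicle wild types and vehicle mutants, the authors' deposited table lists Col4a3 at 0.31 and 0.282.

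Col9a3, a chain of the cartilage FACIT collagen IX, was at 27.6 in vehicle mutant 1 and 25.4 in vehicle wild type 3, and at 5.85 to 10.2 in the other 12. Its partner genes did not follow it. Col9a1 was at 1.16 and 1.11 in those libraries and at 0.327 to 1.81 elsewhere, and Col9a2 was at 1.93 and 1.57 against 1.66 to 2.9. Col17a1 was at 1.58 and 1.95 against 0.459 or less. Col4a6 passed the other libraries only narrowly, at 4.12 and 4.02 against 3.85 in vehicle mutant 3.

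Markers of other cell types were read in the same way. Of the 16 markers of meningeal and perivascular fibroblasts, only 6 were above the other 12 libraries in both. Their summed level was 184 and 161 against 94.0 to 132. Igf2, 1 of the 6, was at 58.2 and 49.7 against 12.4 to 28.9, and Slc13a4 was at 11.9 and 9.19 against 1.77 to 3.51. Dcn, the highest of the list, was at 32.4 and 29.8 against 23.9 to 44.4. The list as a whole was thus not raised. Of the endothelial markers 0 of 10 were above the other 12 libraries in both, with sums of 99.0 and 88.6 against 86.3 to 110. Of the mural markers it was 0 of 8. No marker of these 4 lists was listed at 0 in all libraries. The fibroblast collagens Col1a1, Col1a2 and Col3a1 and the vessel collagens Col4a1 and Col4a2 were within the range of the other libraries in at least 1 of the 2. The part of choroid plexus or meningeal tissue in these collagen levels was not tested.

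**Figure D2:**
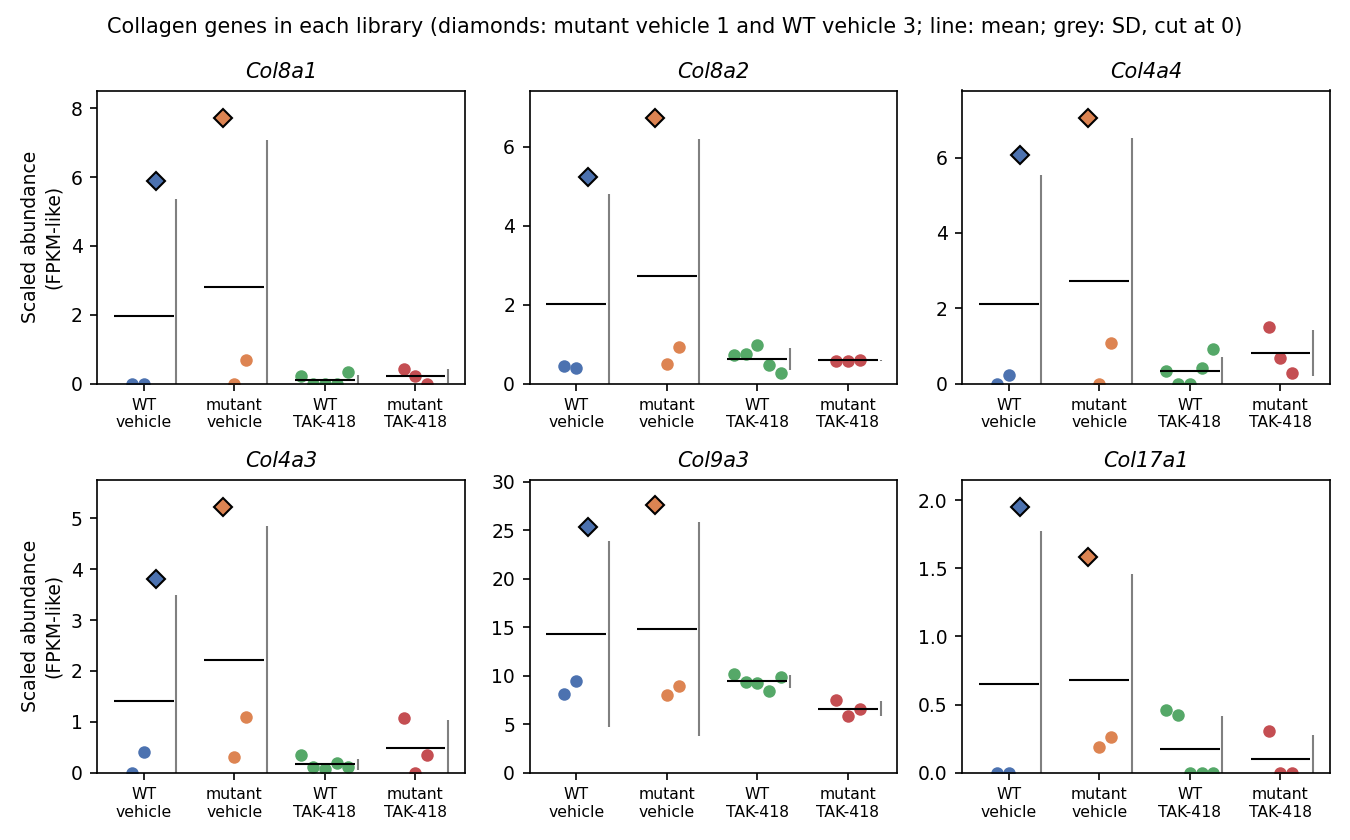
Scaled abundance (FPKM-like, linear axes) of 6 collagen genes in each of the 14 libraries by group, with the mean (black line) and SD (grey line, cut at 0). Diamonds mark vehicle mutant 1 and vehicle wild type 3, which lie far above every other library in all 6 panels, for example at 27.6 and 25.4 for Col9a3 against 10.2 or less.

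The study asks whether the mutation changes hippocampal expression and whether the drug reverses it. Across the 5 contrasts of genotype, drug and their interaction, limma called 0 of the 43 collagen genes at an adjusted p of 0.05. This was the case with all 14 libraries and without the 2 choroid-high ones. All of the following differences between groups are therefore values that did not pass, given with limma's unadjusted p as a description. The contrasts share libraries: both vehicle groups and both treated groups enter more than 1 of them. Shares of all genes belong to the fit with all 14 libraries. None was taken for the fit without the 2 choroid-high ones, so counts from it have no background here.

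**Figure D3:**
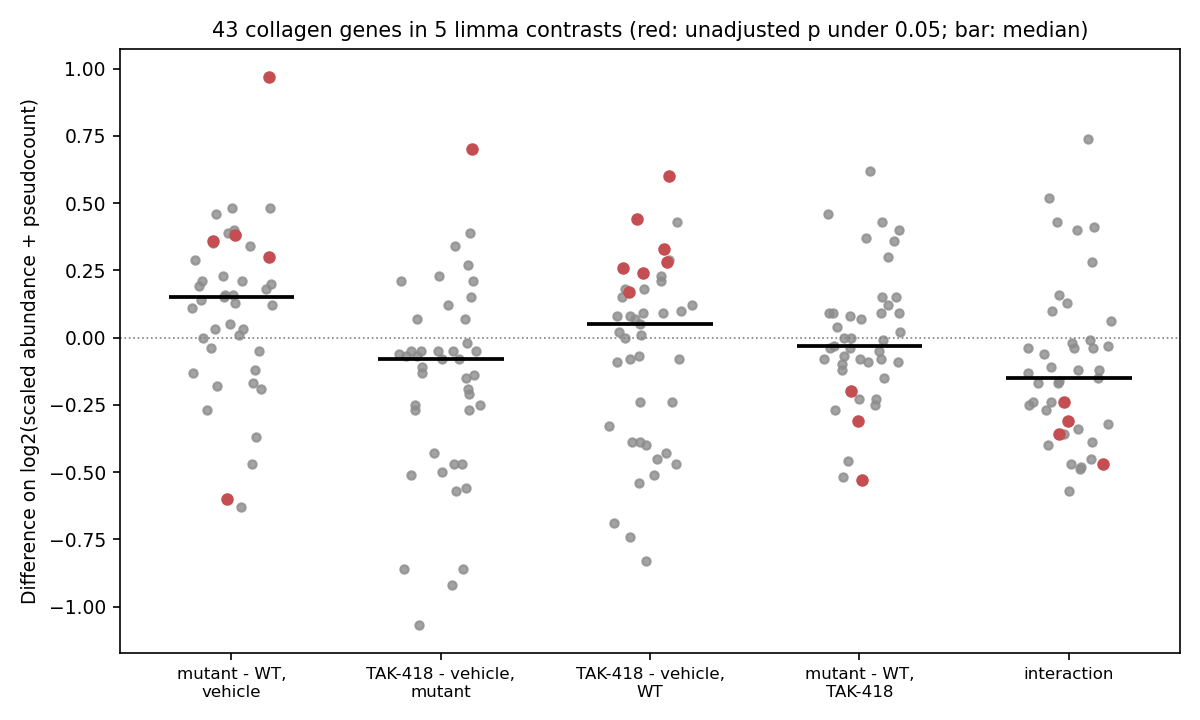
Differences of the 43 collagen genes on the log2(scaled abundance + pseudocount) scale in 5 limma contrasts. Each point is a gene, red points have an unadjusted p under 0.05, and black bars are medians, at 0.15, -0.08, 0.05, -0.03 and -0.15 from left to right. None of the points passed the adjusted threshold.

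Between vehicle mutants and vehicle wild types, 31 of the 43 collagen genes had a higher value in mutants. That is 72.1%, against 49.8% of all genes tested, and the median difference was 0.15 on the log2 scale against 0.00. Limma called 0 collagen genes (smallest adjusted p of 0.694), where the background was 0% of all genes. At an unadjusted p under 0.05, 4 were higher and 1 lower, against 2.62% and 2.84% of all genes. Without the 2 choroid-high libraries 30 were higher and the median was 0.17, while without vehicle mutant 1 alone the median was -0.01 and without vehicle wild type 2 alone it was 0.03.

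Col1a2, a type I chain made by fibroblasts, was at 6.68, 6.19 and 6.60 in vehicle mutants 1 to 3 and at 3.71, 4.49 and 6.44 in vehicle wild types 1 to 3. Vehicle wild type 3 reached the mutant range and the other 2 lay below it. The limma log2 difference was 0.38 ± 0.144 (SE) with an adjusted p of 0.811. Without the 2 choroid-high libraries it was 0.55 ± 0.124 with an adjusted p of 0.631. Its partner Col1a1 showed another order in these values. It was at 3.35 to 3.77 in vehicle mutants and at 4.06, 2.76 and 6.11 in vehicle wild types, which enclosed the mutants. Vehicle wild types 1 and 3 held 2 Col1a1 transcripts each, of at most 26 and 39 exons, where each vehicle mutant held 1 of 51 exons. In the authors' deposited table both genes were higher in vehicle mutants, Col1a1 from 1.88 to 2.39 and Col1a2 from 3.42 to 4.39, neither called.

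Col3a1, a fibril collagen of soft tissue and vessel walls, was at 3.31, 3.60 and 3.06 in vehicle mutants and at 1.74, 2.78 and 2.76 in vehicle wild types. The groups did not overlap. The limma log2 difference of Col3a1 was 0.36 ± 0.159 (SE) with an adjusted p of 0.885. It was 0.45 without the choroid-high libraries. Both genes leaned on vehicle wild type 1, without which the differences were 0.20 for Col3a1 and 0.23 for Col1a2. Beside these genes, the summed level of the meningeal and perivascular fibroblast markers was 118 to 184 in vehicle mutants and 99.4 to 161 in vehicle wild types. Both upper ends belong to the choroid-high libraries, vehicle mutant 1 and vehicle wild type 3, where 6 of the 16 markers were above all others. Igf2 was at 58.2 and 49.7 there against 12.4 to 28.9, while Dcn was at 32.4 and 29.8 against 23.9 to 44.4. The part of such cells was not tested.

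The type XI genes, whose chains set fibril diameter in cartilage, also lay higher in vehicle mutants. Col11a1 was at 6.64, 6.48 and 7.42 in mutants and at 4.53, 3.97 and 5.57 in wild types, without overlap. Its limma log2 difference was 0.48 ± 0.229 (SE), unadjusted p of 0.0586. Col11a2 was at 9.77, 9.27 and 10.3 in mutants and at 6.67, 7.98 and 8.86 in wild types, again without overlap, with a limma difference of 0.30 ± 0.103 and an adjusted p of 0.774. In vehicle mutant 1 its 6 assembled transcripts reached back to 34031163, while Col11a2 is annotated from 34039437. The value of 9.77 may thus not be of Col11a2 alone. The Col11a2 difference was 0.04 with the highest transcript alone and 0.20 without vehicle wild type 1. Leaving out the 2 choroid-high libraries gave 0.38, and that of Col11a1 was 0.61. For this pair of groups, the authors' deposited table called 1 of the 39 collagen loci tested, Col11a1, where 0.224% of all loci were called. It went from 3.54 to 5.39 in the authors' deposited table (q-value 0.0445). The authors' deposited table gives Col11a2 only in a joint locus with Rxrb, which therefore says nothing of the collagen alone.

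Col13a1 had the largest difference of this contrast. It was at 4.16, 1.95 and 3.22 in vehicle mutants and at 1.17, 1.15 and 0.967 in vehicle wild types, which did not overlap. These are sums over 9, 5 and 6 assembled transcripts in the mutants and over 3, 4 and 4 in the wild types. The part of the number of pieces in this difference was not tested. The limma log2 difference was 0.97 ± 0.295 (SE), adjusted p of 0.694. Without the 2 choroid-high libraries it was 0.75, and with the highest transcript alone it was 0.52. In the authors' deposited table Col13a1 was at 0.456 and 0.639, with a q-value of 1.0. The gene that went the other way, Col24a1, was listed at 0 in all 3 vehicle mutants and at 0.411, 0.708 and 0.271 in vehicle wild types, all levels below 1.

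**Figure D4:**
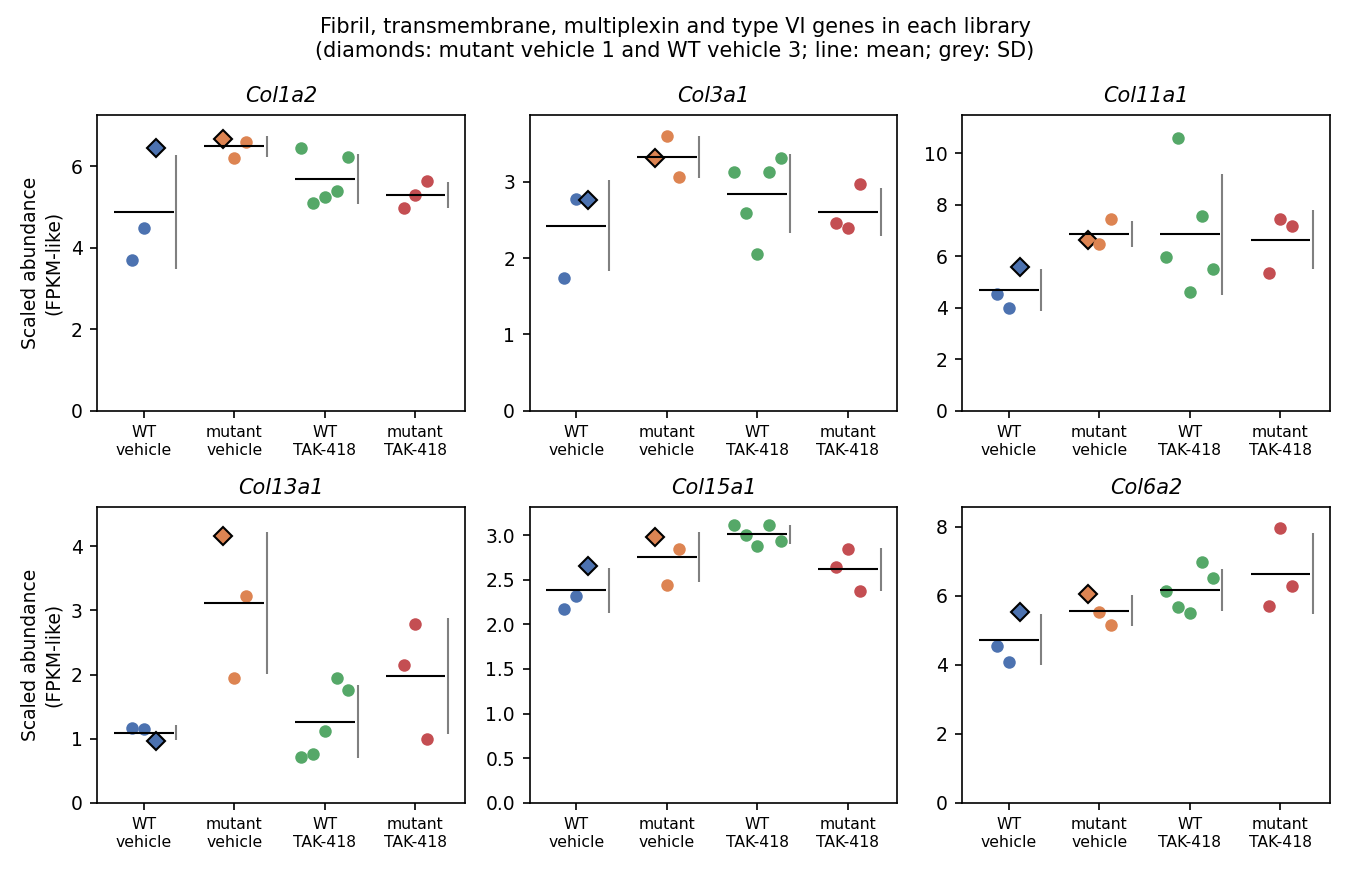
Scaled abundance (FPKM-like, linear axes from 0) of 6 collagen genes in each library by group, with the mean (black line) and SD (grey line). Diamonds mark vehicle mutant 1 and vehicle wild type 3. Vehicle mutants lie above vehicle wild types without overlap for Col3a1, Col11a1 and Col13a1, and treated wild types lie above vehicle wild types without overlap for Col15a1. None of these differences passed the adjusted threshold, and for Col13a1 and Col15a1 the number of assembled transcripts differed between the groups too.

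The drug effect in mutants compares treated with vehicle mutants. Here 32 of 43 collagen genes were lower with TAK-418, with a median of -0.08 against 0.00 for all genes. That left 25.6% higher, against 51.2% of all genes tested. When the 2 choroid-high libraries were left out, 17 of 43 were higher in place of 11, and the median was -0.07. Limma called 0 (smallest adjusted p of 0.79), against 0.00604% of all genes. At an unadjusted p under 0.05, 1 collagen gene was higher and 0 were lower, against 2.5% and 1.89% of all genes. Without the choroid-high libraries 2 were higher and 1 lower, with no share of all genes taken for that fit. The 1 gene in the fit of all libraries was Col24a1, listed at 0 in the vehicle mutants and at 0.0953, 0.626 and 1.11 in treated mutants.

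The largest differences in mutants belonged to genes that stood apart in vehicle mutant 1. The limma log2 difference was -1.07 for Col8a1, -0.92 for Col4a3, -0.86 for Col8a2 and -0.86 for Col9a3, each with an adjusted p of 1.0. Without the 2 choroid-high libraries these became -0.11, -0.26, -0.11 and -0.33, and that of Col4a4 turned from -0.56 to 0.32. Col9a3 kept a separation of the groups: treated mutants were at 7.48, 5.85 and 6.54 and the lowest vehicle mutant was at 8.03. Treated wild types were at 8.48 to 10.2, so the treated mutants were the 3 lowest of all 14 libraries for this gene. Without the choroid-high libraries, the limma difference of treated mutants from treated wild types was -0.47 ± 0.0871 (SE) for Col9a3, with an adjusted p of 0.422. With them it was -0.46 ± 0.383 with an adjusted p of 0.926. In both treated groups the authors' deposited table gave Col9a3 as 7.85, so the lower level in treated mutants was not seen there.

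The drug effect in wild types compares 5 treated with 3 vehicle libraries. Of the 43 collagen genes 24 were higher with TAK-418, and the median was 0.05 against 0.00 for all genes. That is 55.8% higher, against 49.0% of all genes tested. Limma called 0 (smallest adjusted p of 0.42), against 0.00604% of all genes. At an unadjusted p under 0.05, 7 were higher and 0 lower, against 5.17% and 3.27% of all genes. Without the 2 choroid-high libraries 30 were higher, 7 had an unadjusted p under 0.05 and the median was 0.14. For that fit no share of all genes was taken.

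Type VI chains were among the 7. Col6a1 was at 20.0 to 21.4, with a median of 20.4, in treated wild types and at 17.1, 15.0 and 20.5 in vehicle wild types. Vehicle wild type 3 lay inside the treated range and the other 2 below it. Its limma log2 difference was 0.24 ± 0.0787 (SE), adjusted p of 0.442, and it was 0.35 ± 0.0628 with an adjusted p of 0.201 without the choroid-high libraries. Without vehicle wild type 2 alone the Col6a1 difference was 0.13. Col6a2 was at 6.13, 5.68, 5.50, 6.99 and 6.52 against 4.55, 4.09 and 5.53, overlapping by a single library. Its limma difference was 0.33 ± 0.114 with an adjusted p of 0.452, and 0.44 without the choroid-high libraries. In treated mutants Col6a1 was at 20.7 to 23.4 and Col6a2 at 5.70 to 7.97, against 19.3 to 20.5 and 5.16 to 6.04 in vehicle mutants. Col6a6, a low member, was at 0.647 on average against 0.0889, with a limma log2 difference of 0.60 ± 0.247 and an adjusted p of 0.533, and with 0.37 from the highest transcript alone.

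Col15a1, a collagen of vascular basement membranes, was at 3.11, 3.00, 2.88, 3.11 and 2.94 in treated wild types and at 2.17, 2.32 and 2.66 in vehicle wild types. Of the 7, only Col15a1 had groups that did not overlap, and the share of all genes without overlap was not taken. Its values come from 1 assembled transcript in each vehicle wild type and from 2 in each treated wild type. The part of that number in the difference was not tested. The limma log2 difference of Col15a1 was 0.26 ± 0.0799 (SE) with an adjusted p of 0.42, but it was -0.03 when the highest transcript of the gene alone was used. Without the choroid-high libraries it was 0.32. Col4a2 was at 21.5, 22.0, 19.7, 23.0 and 21.1 in treated wild types and 17.6, 18.5 and 20.9 in vehicle wild types, a limma difference of 0.17 ± 0.0697, and 0.23 without the choroid-high libraries. Its partner Col4a1 had a limma difference of 0.12 ± 0.076, and 0.14 without them. The fibril regulator Col5a1 was at 3.18 to 3.97 against 2.40 to 3.30, a limma difference of 0.28 ± 0.0987 with an adjusted p of 0.467, and 0.37 without the choroid-high libraries. Col28a1 was at 0.50 on average against 0.137, with 2 vehicle wild types listed at 0, a limma difference of 0.44 and of 0.37 without the choroid-high libraries. Endothelial markers, beside the vessel collagens, summed to 86.3 to 110 in treated and 88.6 to 107 in vehicle wild types. Among them Cldn5 was at 0.566 and 1.04 in treated wild types 2 and 3 and at 7.55 to 8.46 in the other treated wild types.

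The genes that stood apart in the choroid-high libraries were lower with TAK-418 in wild types, a contrast that holds vehicle wild type 3. Col8a1 differed by -0.83, Col4a3 by -0.74, Col4a4 by -0.69, Col8a2 by -0.54 and Col9a3 by -0.39 in limma, each with an adjusted p of 0.742 or more. Without the 2 libraries these were 0.16, -0.03, 0.26, 0.21 and 0.09.

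Between treated mutants and treated wild types, 19 of 43 collagen genes were higher in mutants, with a median of -0.03 against 0.00. That is 44.2%, against 51.1% of all genes tested. Limma called 0 (smallest adjusted p of 0.926), against 0.0121% of all genes. At an unadjusted p under 0.05, 0 were higher and 3 lower, against 2.4% and 2.52%. Col4a1 was at 16.1, 17.4 and 17.2 in treated mutants and at 20.4, 20.3, 16.9, 20.8 and 19.2 in treated wild types, where replicate 3 overlapped the mutants. Its limma log2 difference was -0.20 ± 0.076 (SE) and turned to 0.06 with the highest transcript alone. Col20a1, a FACIT chain, was at 2.09, 1.70 and 1.97 against 2.27 to 3.01, without overlap, a limma difference of -0.31 ± 0.13. Its locus in the authors' deposited tables is merged with Arfgap1. In most libraries its assembled transcript was merged too. The transcript began at 180967229 in treated mutant 2, for example, where Col20a1 is annotated from 180986535, but at 180988178 in treated mutant 1. The Col20a1 values are thus mostly of merged transcripts that differ between libraries. Col28a1 was at 0.0475, 0.155 and 0 against 0.172 to 0.781, a limma difference of -0.53 ± 0.188. Several genes named for the vehicle groups were read again in the treated groups, where their values overlapped. Col13a1 was at 2.15, 2.79 and 0.993 in treated mutants and at 0.708 to 1.95 in treated wild types, a limma log2 difference of 0.40 ± 0.264 (SE, adjusted p of 0.926). Col11a2 was at 7.25 to 9.29 against 8.22 to 9.49. Col1a2 was at 4.98 to 5.63 against 5.10 to 6.45, Col3a1 at 2.39 to 2.97 against 2.05 to 3.31 and Col11a1 at 5.33 to 7.42 against 4.60 to 10.6.

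The interaction asks whether the drug effect differed between genotypes. Negative values mean a lower effect in mutants. Of the 43 collagen genes 33 had a negative value, with a median of -0.15 against 0.00 for all genes. That left 23.3% positive, against 51.2% of all genes tested. The interaction shares the vehicle groups with the contrasts above. Limma called 0 (smallest adjusted p of 0.977), against 0.00604% of all genes. At an unadjusted p under 0.05, 0 were positive and 4 negative, against 2.14% and 2.29%. With the 2 choroid-high libraries left out, 1 was positive and 7 were negative, and the median was -0.21. No share of all genes was taken for that fit, so these counts cannot be set against a background. The 4 negative genes in the fit of all libraries were Col1a2 at -0.47 ± 0.193 (SE), Col11a2 at -0.36 ± 0.138, Col15a1 at -0.31 ± 0.12 and Col4a2 at -0.24 ± 0.105, each with an adjusted limma p of 0.977. Without the choroid-high libraries these were -0.64, -0.45, -0.33 and -0.31. With the highest transcript alone the Col15a1 interaction turned to 0.07. Leaving out single libraries moved the median between -0.27 and -0.04.

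The other deposited comparisons each called a few collagen loci, most of them the genes of the choroid-high libraries. Since these tables give 1 pooled value per group, the spread between libraries has to be read from the assemblies above. With treated wild types as the reference for treated mutants, the authors' deposited table called 1 of 39 collagen loci, against 0.218% of all. It was Col8a1, from 0.147 to 0.295 (authors' deposited table, q-value 0.024), while 3 of 5 and 1 of 3 libraries were listed at 0. With vehicle wild types as the reference for treated mutants, the authors' deposited table called 3, against 0.324% of all. There, in the authors' deposited table, Col8a1 went from 1.48 to 0.295, Col8a2 from 1.60 to 0.547 and Col11a1 from 3.56 to 5.25. With treated wild types as the reference for vehicle mutants, the authors' deposited table called 5, all higher in mutants, against 0.611% of all. Its changes, from the authors' deposited table, were 0.146 to 2.03 for Col8a1, 0.44 to 1.99 for Col8a2, 0.199 to 0.421 for Col4a4, 7.79 to 16.8 for Col9a3 and 1.39 to 1.94 for Col4a5. The q-values of Col8a1 and Col8a2 were 0.0185 in the second of these comparisons in the authors' deposited tables, and that of Col11a1 was 0.0464.

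In the comparisons that called Col8a1 and Col8a2 with larger folds, 1 side holds vehicle mutant 1 or vehicle wild type 3, the highest library of its group for both genes. For Col8a2 these were 6.73 beside 0.497 and 0.915 among vehicle mutants, and 5.23 beside 0.437 and 0.389 among vehicle wild types. Of the vehicle mutants, Col4a5 was at 2.85, 5.77 and 1.96, so vehicle mutant 2 was the high library for that gene, while treated wild types were at 1.81 to 4.07. Col11a1 was called in both comparisons with vehicle wild types, which they share. It was at 3.97 to 5.57 there and at 4.60 to 10.6 in treated wild types, which were not compared with them in a deposited table.

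Among 5 relations across the 12 libraries other than the choroid-high pair, adjusted together, the 2 type IV chains went together. Pearson's r of Col4a1 with Col4a2 was 0.76 and Spearman's rho 0.71, with adjusted permutation p-values of 0.0178 and 0.0328. On deviations from the group means r was 0.72, and without the 2 libraries farthest from the median of Col4a1 it was 0.63 with an adjusted permutation p of 0.254, so the relation rests in part on those libraries. Col1a2 followed the mean level of the fibroblast markers, with r of 0.74 and rho of 0.72 (adjusted permutation p of 0.0178 and 0.0328). Within groups that r was 0.52, and without the 2 farthest libraries it was 0.53, neither past the threshold. Col3a1 with the same markers gave r of 0.57 and rho of 0.47, with adjusted permutation p-values of 0.0919 and 0.213, and r was 0.04 without the 2 farthest libraries. Col1a1 with Col1a2 gave r of 0.24 and rho of 0.29 (adjusted permutation p of 0.563 and 0.455), although their products join in 1 molecule. In some of these libraries, such as vehicle wild type 1, the Col1a1 value was a sum over 2 transcripts. Col4a1 with the endothelial markers gave r of -0.10 and rho of 0.13 (adjusted permutation p of 0.748 and 0.7).

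**Figure D5:**
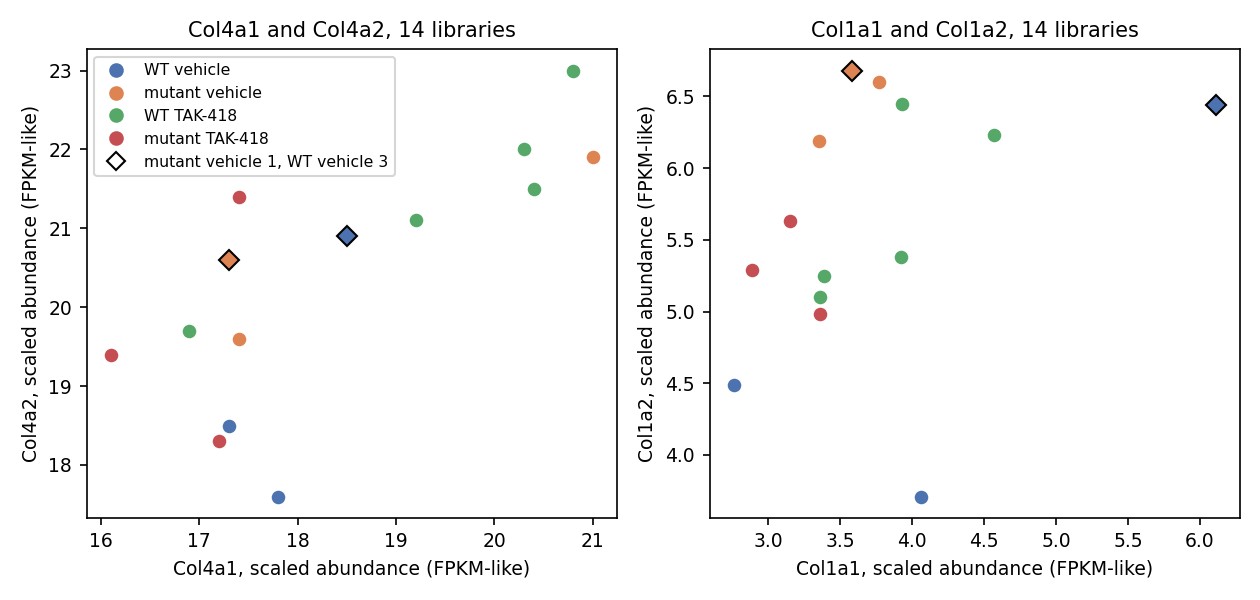
Scaled abundance (FPKM-like) of partner chains in each of the 14 libraries, Col4a1 against Col4a2 on the left and Col1a1 against Col1a2 on the right, on linear axes that do not start at 0. Points are libraries coloured by group, and diamonds are vehicle mutant 1 and vehicle wild type 3. Over the 12 other libraries r was 0.76 for the type IV pair and 0.24 for the type I pair.

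The genes that make, process and bind collagen were read from the same fit. Limma called 0 of 21 enzymes and chaperones of collagen synthesis, 0 of 13 secreted processing and cross-linking genes, 0 of 10 receptors, 0 of 15 basement membrane partners and 0 of 8 turnover genes in each of the 5 contrasts. Of all genes tested, 0% to 0.0121% were called in these contrasts. The median differences of the 5 lists lay between -0.22 and 0.15. Sparc, which binds collagen outside the cell, was the most abundant of the enzymes and chaperones at 167 to 205. Adgrg1, a receptor for collagen III in the brain, had the smallest p of the receptors. It was at 32.3 to 34.2 in the treated wild types and at 28.2, 29.4 and 30.2 in vehicle wild types, without overlap, a limma log2 difference of 0.18 ± 0.0339 (SE) with an adjusted p of 0.189. In treated mutants Adgrg1 was at 29.0 to 30.2. Tmem38b, a channel needed for collagen folding in the endoplasmic reticulum, was at 7.54 to 8.11 in treated wild types and 9.19 to 9.82 in vehicle wild types, a limma difference of -0.25 ± 0.051 with an adjusted p of 0.194. In treated mutants Tmem38b was at 8.33 to 9.56, and its limma interaction was 0.36 ± 0.0764 with an adjusted p of 0.641. The basement membrane proteoglycan gene Hspg2 was at 1.45 to 7.77 against 6.42 to 8.85, a limma difference of -0.96 ± 0.322 with an adjusted p of 0.446.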

How the data were processed

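RNA was sequenced from the hippocampus of mice in 4 groups (14 libraries), grouped by the labels. Per the file headers, the authors assembled each library's transcripts with CLASS 2.1.7, and each deposited transcript carries an abundance score on an FPKM-like scale that no label names. The submitters' processing notes name TopHat2 2.1.0, FastQC and mm10 without giving their roles. The labels' protocols name a pair of library kits without saying which library used which. The authors deposited 4 comparison tables in the layout of Cuffdiff with 1 FPKM value per group, a log2 fold change, a p-value and a q-value per locus. For all 4 tables, the group pair whose assemblies were closest (Spearman) matched the pair named for the table.

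Transcripts were assigned to GENCODE M21 genes by a shared intron, or by 50% same-strand exon overlap for single-exon transcripts, and added up. Scaling between libraries used median ratios over 13273 genes. Tests used limma 3.58.1 in R 4.3.3 (1 fit of 4 group means, eBayes with trend) on log2(value + 0.878), the 10th percentile of values above 0, for genes with a value in at least 3 libraries, with Benjamini-Hochberg over all 16568. A count test was not used because abundance is not a count. Correlations used permutation tests with 100000 resamples. Fold changes of low genes are understated on this scale. The step between values of abundance times length, whole within 0.05 for 94.6% to 99.2% of values, gave relative depth. Of the summed abundance, 92.0% to 95.9% was assigned to a gene in 12 libraries, 59.2% in vehicle mutant 1 and 67.1% in treated mutant 2. Tested on simulated data for the genotype effect under vehicle, the fit recovered 73% of genes changed by 1 and 93% of those changed by 2 (log2) among 16568, with 4 wrong calls. Those data were normal values around each gene's mean with the fit's own spread, without lost or split transcripts. The shares therefore do not show how often a change in a low collagen gene would be found. The other steps used pandas 2.3.3 and numpy 2.4.6 in Python 3.11.15, scipy 1.17.1 for permutation tests, and matplotlib 3.10.9 for figures.

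Members and lists were chosen with earlier results of these data known. Values per library, or their range in a group, are given for Col1a1, Col1a2, Col3a1, Col4a1 and Col4a2, the 2 highest genes of a structural class, any collagen with an unadjusted limma p under 0.05, and any called in a deposited table. Genes of the 12 other lists (5 of the pathway, 7 of cell type markers) were to be named where highest in a list or of its smallest p in a contrast. Not all such genes are named. Igf2, Slc13a4, Cldn5 and Snap25 do not meet that rule and were named after their values were seen. Markers of oligodendrocyte precursors (1 of 5 above the other libraries in both choroid-high ones) and astrocytes (0 of 5) were also read. Genes with overlapping neighbours (Col3a1, Col7a1, Col11a2, Col20a1) are uncertain, since how shared reads were divided is not given in the sources used here.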

Additional observations from a re-analysis of the deposited data

Results flagged for a closer look

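The 5 treated wild types form the only group large enough to look for a library that stands far off, which was done for 27 collagen genes. By chance about 1 group in 20 is marked, and 2 of the 27 were marked here, not far from that rate. Col18a1, whose C-terminal fragment is endostatin, was at 3.15 in treated wild type 3 against 1.51 in the next library, a gap of 0.91 of the range where the critical value is 0.71. The other libraries of the study ran up to 2.99 for this gene, so that level is high only within its group. Col26a1 was at 2.38 in treated wild type 1, the deepest library, against 1.92 in the next, a gap of 0.771 of the range. The part of depth in that value was not tested.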

How the results depend on the processing

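The count of collagen genes called by limma was 0 in each of the 5 contrasts under every alternative run (scaling, pseudocount, filter, transcript choice, separate fits, single libraries and the choroid-high pair left out). For 33 gene and contrast pairs given above, 544 of 557 alternatives kept the direction, with a smallest adjusted p of 0.161, and 13 reversed. With the highest transcript only, Col15a1 was -0.03 in the drug effect in wild types and 0.07 in the interaction, and Col4a1 was 0.06 in the genotype effect under TAK-418. Without both choroid-high libraries the drug effect in mutants was 0.32 for Col4a4, and that in wild types was 0.16 for Col8a1, 0.21 for Col8a2, 0.09 for Col9a3 and 0.26 for Col4a4. Leaving out each library in turn, these 5 ran from -1.29 to 0.31, -1.33 to 0.16, -0.93 to 0.21, -0.68 to 0.09 and -1.25 to 0.25, each highest without vehicle mutant 1 (mutants) or vehicle wild type 3 (wild types). With a pseudocount 10 times larger the genotype effect under vehicle shrank to 0.26 for Col13a1, 0.17 for Col1a2, 0.16 for Col11a2 and 0.11 for Col3a1. The collagen median was 0.05 for the genotype effect under vehicle and -0.05 for the interaction with a pseudocount 10 times larger. Leaving out single libraries gave -0.01 to 0.22 and -0.27 to -0.04. Over all genes, alternatives called 0 to 12, 0 to 17, 0 to 7, 0 to 7 and 0 to 7 genes in the order of the contrasts above. Of the correlations, Col1a1 with Col1a2 was -0.12, Col4a1 with Col4a2 0.63 and Col1a2 with fibroblast markers 0.53 without the 2 farthest libraries. On deviations from group means the last was 0.52 and Col4a1 with endothelial markers was 0.01. Without further scaling these endothelial markers gave 0.03, and Col3a1 with fibroblast markers gave 0.68. With q-values held to 0.01, 0 collagen loci were called in the authors' deposited tables for all but 1 comparison. That of vehicle mutants with treated wild types kept 4. The share of all loci called at 0.01 was not taken. The 7 collagen genes highest in both choroid-high libraries were 6 to 8 under 4 alternatives chosen after seeing the data. No paired analysis was possible because the labels carry no replicate numbers. Values are given with and without the choroid-high pair, but the cause of these moves was not tested. Values near 0.878 and below rest on few reads.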
